A study of Mus musculus with 66 samples.

Results

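Across 27 recombinant inbred mouse strains of the BXD panel, medial prefrontal cortex was compared between the 9 strains with the highest and the 9 with the lowest transcript level of Fos after a saline injection. Each strain had 1 saline array, and the arrays were ranked by the 1 probe set that carried the symbol Fos. The members were thus 18 of the 27 saline BXD arrays and of 66 arrays in all. The high Fos strains were, in order, BXD01, BXD21, BXD05, BXD06, BXD11, BXD23, BXD22, BXD15 and BXD33. The low Fos strains, from the lowest upwards, were BXD18, BXD19, BXD32, BXD14, BXD20, BXD39, BXD08, BXD36 and BXD12.

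BXD strains are inbred mosaics of the genomes of C57BL/6J (written C57BL6/J in the labels) and DBA/2J, and they carry no engineered allele in these labels. All mice were males of 10 to 12 weeks, and 1 array held the RNA of 4 to 5 pooled animals. Mice received saline or ethanol at 1.8 g/kg into the abdomen, 15 minutes of restraint and 10 minutes in a light-dark box, and tissue was taken 4 hours after the injection. The saline animals were therefore handled, injected and restrained, and their Fos level is not that of undisturbed mice. The 27 ethanol BXD arrays came from other animals of the same strains, and both progenitor strains had 3 arrays per treatment. With 1 pool per strain and treatment, a difference between strains and a difference between pools cannot be told apart.

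Fos encodes a subunit of the AP-1 transcription factor. In neurons its gene is silent or low at rest and is transcribed within minutes of calcium entry or cyclic AMP signalling, through CREB at cyclic AMP response elements and through serum response factor at serum response elements, which contain a CArG box. MAP kinases carry part of this signal to the promoter. Several other immediate early genes share this control, among them those for the transcription factors of the Egr and Nr4a families, the synaptic protein Arc, and phosphatases of the Dusp family that shut MAP kinases off again.

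The promoters of Fos and of 4 genes on which the results below turn are shown because the same short element recurs in them. They are RefSeq windows of GRCm38.p6, 300 bases long, from 250 bases before the transcription start to 50 after it, each written 5′ to 3′ along its gene. Capitals mark TGACG, the half-site of a cyclic AMP response element, on either strand (so also CGTCA), and any CArG box. The Fos window is chr12:85473640-85473939 on the plus strand, Egr2 is chr10:67537619-67537918 on the plus strand, and Nr4a1 is chr15:101266596-101266895 on the plus strand. Dusp1 is chr17:26508423-26508722 and Npas4 is chr19:4989922-4990221, both on the minus strand. Egr2 had 5 windows in the table, and the one with the most matches is printed.
Fos: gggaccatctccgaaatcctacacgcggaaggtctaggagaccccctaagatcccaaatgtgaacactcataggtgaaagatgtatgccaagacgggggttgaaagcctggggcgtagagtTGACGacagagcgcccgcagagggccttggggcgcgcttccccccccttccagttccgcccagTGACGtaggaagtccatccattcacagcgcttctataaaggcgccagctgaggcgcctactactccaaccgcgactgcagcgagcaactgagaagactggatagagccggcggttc
Egr2: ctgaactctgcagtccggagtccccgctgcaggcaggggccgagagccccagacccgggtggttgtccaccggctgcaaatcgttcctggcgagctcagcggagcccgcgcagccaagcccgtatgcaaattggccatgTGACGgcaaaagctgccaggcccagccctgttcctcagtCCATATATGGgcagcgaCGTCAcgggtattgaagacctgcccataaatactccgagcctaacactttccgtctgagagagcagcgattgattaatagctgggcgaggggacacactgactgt
Nr4a1: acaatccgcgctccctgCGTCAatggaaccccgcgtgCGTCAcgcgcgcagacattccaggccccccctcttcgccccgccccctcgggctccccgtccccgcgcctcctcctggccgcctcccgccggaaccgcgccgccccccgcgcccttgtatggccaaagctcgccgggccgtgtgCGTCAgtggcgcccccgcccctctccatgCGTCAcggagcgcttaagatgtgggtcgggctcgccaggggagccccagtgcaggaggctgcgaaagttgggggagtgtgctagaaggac
Dusp1: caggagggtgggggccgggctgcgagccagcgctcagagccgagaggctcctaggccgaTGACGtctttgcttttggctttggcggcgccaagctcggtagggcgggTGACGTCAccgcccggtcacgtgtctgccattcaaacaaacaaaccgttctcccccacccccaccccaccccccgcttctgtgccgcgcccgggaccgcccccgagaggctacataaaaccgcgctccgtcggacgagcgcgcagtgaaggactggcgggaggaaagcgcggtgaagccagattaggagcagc
Npas4: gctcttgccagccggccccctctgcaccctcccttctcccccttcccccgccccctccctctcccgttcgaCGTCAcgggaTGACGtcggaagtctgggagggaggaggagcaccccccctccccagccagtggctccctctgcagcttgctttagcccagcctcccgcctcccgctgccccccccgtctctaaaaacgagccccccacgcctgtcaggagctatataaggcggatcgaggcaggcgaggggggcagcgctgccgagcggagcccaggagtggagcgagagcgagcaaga
The half-site stood 2 times in the Fos window, 2 times in that of Egr2, 4 times in Nr4a1, 3 times in Dusp1 and 2 times in Npas4. A full palindrome counts as 2 overlapping half-sites, as at Dusp1. The Egr2 window alone of these 5 held a CArG box, which says nothing of sequence outside the windows. Of all 32851 promoter windows in the table, 20.8% held the half-site and 1.63% a CArG box. A match of letters is a description of the sequence and not evidence of binding.

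Fos itself is described first, because its saline level chose the strains and supports nothing further. On the saline arrays its level was 8.83 ± 0.50 (log2, SD, n = 9) in the high strains, from 8.38 through a median of 8.78 to 9.95, and 7.66 ± 0.34 (n = 9) in the low strains, from 7.09 through 7.83 to 7.98. The difference of 1.17 is 2.24-fold. The 9 strains between them were at 8.18 ± 0.14. BXD01 stood apart at 9.95, with BXD21 next at 9.20, while BXD18 at 7.09 and BXD19 at 7.11 formed the lower end. The borders were not gaps: the lowest high strain, BXD33, was at 8.38 and the next strain outside, BXD42, at 8.36, and the highest low strain, BXD12, was at 7.98 with BXD16 just outside at 8.00. The saline progenitor arrays were at 8.18 ± 0.14 in C57BL/6J and 7.41 ± 0.33 in DBA/2J (n = 3 each).

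**Figure D1:**
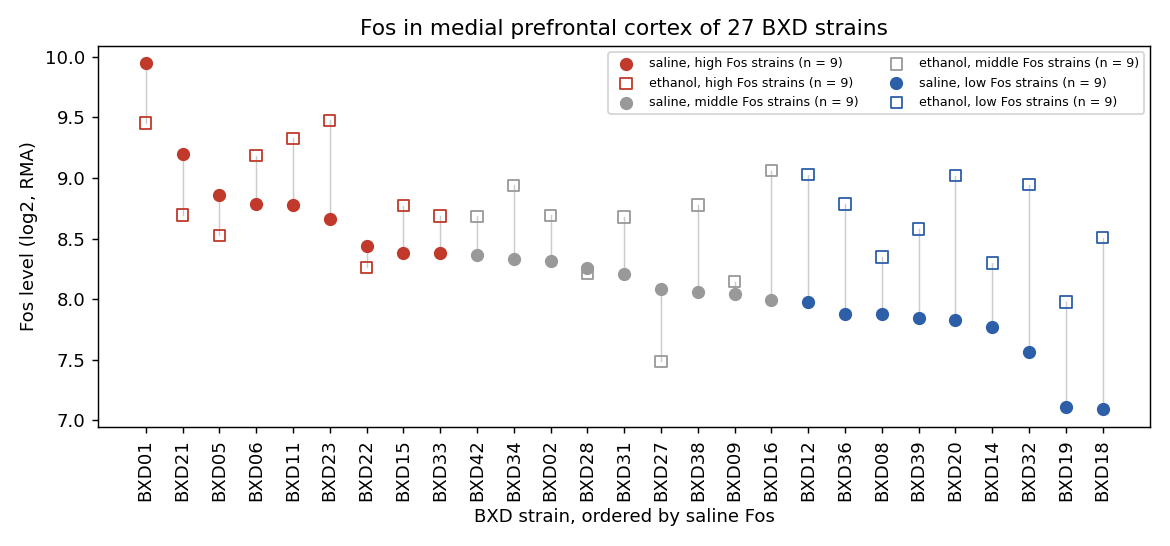
Fos level (log2) of each BXD strain on its saline array (filled circles) and its ethanol array (open squares), with strains ordered by saline Fos and coloured as high, middle and low (9 strains each). Saline values fall from 9.95 to 7.09 by construction, whereas the ethanol values of the high and low strains overlap, between 8.26 and 9.48 and between 7.98 and 9.03.

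Array properties and cell type markers were read before other genes. Marker lists for excitatory neurons (21 of 24 measured) and inhibitory neurons (18 of 20) passed the filter on dim probe sets in these numbers, and their median differences between high and low strains on the saline arrays were -0.01 and -0.0071, beside -0.0024 over all 13195 genes. Astrocyte markers (median 0.02 over 15 genes) and myelin markers (0.02 over 15) lay close to that value too, and of 57 nuclear genes of oxidative phosphorylation 27 were higher and 30 lower. In 3 other cell types or regions most markers lay lower in the high strains, where 51.2% of all genes were lower. They were 14 of 15 meningeal markers (median -0.15), 11 of 14 microglia markers (median -0.06) and 8 of 13 striatal markers (median -0.05). On the ethanol arrays 8, 3 and 6 of them were lower. The microglia marker with the largest difference on the saline arrays, Cx3cr1, went the other way at 0.21, as did 3 of the 14 in all. The mean level of the microglia markers was 8.14 on the high and 8.17 on the low saline arrays. The 2 most negative striatal markers were Ppp1r1b, a phosphatase inhibitor of dopamine-responsive neurons, and the dopamine receptor gene Drd2. They differed by -0.41 and -0.24 on the saline arrays, and by -0.04 and -0.06 on the ethanol arrays. On the saline arrays 5 of 13 striatal markers went the other way, by up to 0.19 for Rarb. The mean level of the meningeal markers was 7.42 to 7.93 on the high and 7.55 to 8.08 on the low saline arrays, and 7.29 to 7.93 against 7.30 to 7.87 on the ethanol arrays of the same strains. Igf2, a growth factor of meningeal cells, differed by -0.32 and the collagen gene Col1a2 by -0.33, or by -0.16 without BXD22, its lowest high array. In all 29 of 36 ribosomal protein genes were lower, and the median over the 36 was -0.05. On the ethanol arrays 15 of 36 were lower, with a median of 0.0023. The median value of an array averaged 5.716 on the high and 5.715 on the low saline arrays. On the ethanol arrays it averaged 5.696 (SD 0.018) in the high and 5.722 (SD 0.013) in the low strains, with overlapping ranges. The SD of the values of an array averaged 2.124 on the high and 2.110 on the low saline arrays. On the ethanol arrays it averaged 2.134 and 2.110, again with overlapping ranges. The first principal component of all arrays had a mean score of -4.68 on the high and 4.08 on the low saline arrays, with overlapping ranges. The part of these markers or of this component in the differences below was not tested beyond fits with the meningeal level or the component as a covariate. In such bulk RNA fewer cells of a type and less RNA per cell cannot be told apart.

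The contrast of high with low strains on the saline arrays asks which other transcripts follow Fos. Because Fos on these very arrays chose the groups, its values are given without a test. Of 13195 genes other than Fos, 466 (3.53%) were at least 0.2 higher (log2) in the high strains and 278 (2.11%) at least 0.2 lower. In 5 genes (0.0379%) all 9 high arrays lay above all 9 low arrays, and in 0 genes did they all lie below. The 5 were Egr2, a zinc finger transcription factor, Dusp6, a phosphatase of the MAP kinase ERK, Hspa5, the main chaperone of the endoplasmic reticulum, Prdm10, a zinc finger protein, and Rap1b, a small GTPase. The count without overlap was 1 with the meningeal marker level and 0 with the first principal component as a covariate, 8 without BXD36, 9 without BXD39 and 19 without BXD06. The count of genes at least 0.2 higher was 721 without BXD06 and 259 with the first principal component as a covariate.

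Among immediate early transcription factors, 22 of 29 measured were higher in the high strains, beside 48.8% of all genes, and 16 were higher by at least 0.2. The median difference was 0.22. Egr2 had levels of 5.72, 5.99 and 7.53 (lowest, median, highest) in the high strains and 3.94, 5.28 and 5.52 in the low strains. The groups did not overlap, BXD01 held the highest value, and the difference was 1.23. The low strains' mean of 4.97 lay under the level of 5.10 below which probe sets were removed as dim, so the size is not exact. Its Pearson r with Fos over the 27 saline arrays was 0.928, the highest of all 13195 genes.

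The orphan nuclear receptors of the Nr4a family followed. Nr4a1 was at 9.82, 10.07 and 10.54 in the high and 8.998, 9.66 and 9.92 in the low strains, and 7 of 9 high arrays were above every low array. Nr4a3 was at 8.46, 8.80 and 9.36 against 8.03, 8.35 and 8.56, with 6 of 9 high arrays above every low one. The differences were 0.52 for Nr4a1 and 0.49 for Nr4a3, with r to Fos of 0.820 and 0.878, and 0.23 for Nr4a2. Egr1, another member of the Egr family, was at 11.07, 11.58 and 11.98 against 10.75, 11.16 and 11.47, a difference of 0.42. Npas4, a neuronal factor induced by calcium, was at 6.61, 6.76 and 7.17 against 6.08, 6.27 and 6.91. Its difference was 0.45, and 4 of 9 high arrays exceeded every low one.

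Other factors of the list differed by less or less evenly. Klf10, a Krüppel-like factor, differed by 0.44, and Ier5, a nuclear immediate early protein, by 0.41, with 8 of 9 high arrays above every low one. The other subunits of AP-1 were not uniform. Of the Fos family, Fosl2 differed by 0.37, Fosb by 0.28 and Fosl1 by -0.12, and of the Jun family, whose members pair with Fos, Junb differed by 0.34, Jun by -0.02 and Jund by -0.10. Fosb rested on single strains, being 7.38 in BXD01 and at most 6.24 in the other high strains, and 7.04 in BXD32 among low strains whose median was 5.75. Without BXD01 its difference was 0.13 and without BXD32 0.43. Cebpb, a leucine zipper factor, had the lowest value of the list at -0.21.

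Of the synaptic and signalling effectors, 13 of 20 were higher (beside 48.8% of all genes), 3 by at least 0.2, with a median of 0.08. Arc, which binds the endocytic machinery that removes AMPA receptors, led them. Its levels were 8.69, 9.10 and 9.75 in the high and 6.85, 8.34 and 8.84 in the low strains, a difference of 0.92 with 6 of 9 high arrays above every low one. Tiparp, a mono-ADP-ribosyltransferase, differed by 0.36 and had an r to Fos of 0.875. The pseudokinase gene Trib1 differed by 0.27. Homer1, a scaffold of the postsynaptic density, differed by 0.15, and Ptgs2, the inducible cyclooxygenase, by -0.03.

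Of the secreted proteins of activated neurons, 12 of 16 were higher (beside 48.8% of all genes), 2 by at least 0.2. Their median was 0.02. Pcsk1, a prohormone convertase, differed by 0.30 and Crh, corticotropin-releasing hormone, by 0.22. Bdnf, the neurotrophin, was at 8.99, 9.28 and 10.09 in the high and 8.88, 9.08 and 9.72 in the low strains, so the groups overlapped widely. Its difference was 0.18, and 0.09 without BXD01, which held the highest value. Vgf and Scg2, granule proteins of neurons, differed by -0.04 and 0.03.

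The list of MAP kinase phosphatases and other feedback inhibitors had 13 of 16 genes higher (beside 48.8% of all genes), 6 by at least 0.2. Its median was 0.13. The list also held genes that are not inhibitors of MAP kinases: Zfp36, Zfp36l1 (0.17), Zfp36l2 (-0.01) and Nfkbia (0.10). Dusp6 was at 8.93, 9.28 and 9.53 in the high and 8.57, 8.78 and 8.92 in the low strains, without overlap, a difference of 0.52. Dusp1 was at 8.77, 9.12 and 9.43 against 7.96, 8.57 and 8.95, a difference of 0.57 with 7 of 9 high arrays above every low one. Dusp4 differed by 0.41 and Spred1, an inhibitor of Ras to ERK signalling, by 0.30. Dusp2 differed by -0.04, and Zfp36, which destabilises early messenger RNAs, by 0.01. Of the signalling genes that act upstream of Fos, 20 of 34 measured were higher (58.8%, beside 48.8% of all genes). Of these 0 were higher by at least 0.2, and the median of the list was 0.04. Creb1 itself differed by 0.19, Srf by 0.16 and the calcium-dependent kinase gene Camk4 by -0.29.

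Of the heat shock proteins 19 of 20 were higher in the high strains, 6 by at least 0.2, with a median of 0.13. Of all genes 48.8% were higher, 3.53% by at least 0.2. Hspa1b was at 8.07, 8.86 and 9.73 in the high and 8.08, 8.30 and 8.79 in the low strains, a difference of 0.45, with 5 of 9 high arrays above every low one. Hspa1a, which is nearly identical to it in sequence so that their probe sets can share signal, differed by 0.35, Chordc1, a cochaperone of Hsp90, by 0.34 and the cochaperone gene Dnajb1 by 0.31. On the ethanol arrays 19 of 20 were again higher, with a median of 0.14, while 54.6% of all genes were. Of genes that respond to glucocorticoids, 18 of 22 were higher on the saline arrays, beside 48.8% of all genes. On the ethanol arrays 16 of 22 were higher, beside 54.6%. After saline their median was 0.07, and 3 were higher by at least 0.2. These 3 were Dusp1, Per2 and Tsc22d3 (0.27), while Fkbp5, a standard target of the receptor, differed by 0.09 and Sgk1 by 0.12.

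Clock genes lay on both sides. Per2, a repressor of the circadian clock that also responds to cyclic AMP, was at 6.96, 7.19 and 7.42 in the high and 6.17, 6.70 and 7.09 in the low strains, a difference of 0.55 with 6 of 9 high arrays above every low one. Cry1, its partner repressor, differed by 0.36. In all 14 of 20 clock genes were higher, beside 48.8% of all genes. Yet 4 were lower by at least 0.2, beside 2.11% of all genes: Nr1d1 (-0.34), Dbp (-0.31), Per3 (-0.28) and Ciart (-0.22). These 4 are named here after their values were seen. On the ethanol arrays Per2 and Cry1 differed by 0.40 and 0.30, and Nr1d1, Dbp, Per3 and Ciart by -0.26, -0.18, -0.28 and -0.20. None of these 6 passed the adjusted threshold there. The time of day of each pool was not used here.

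**Figure D2:**
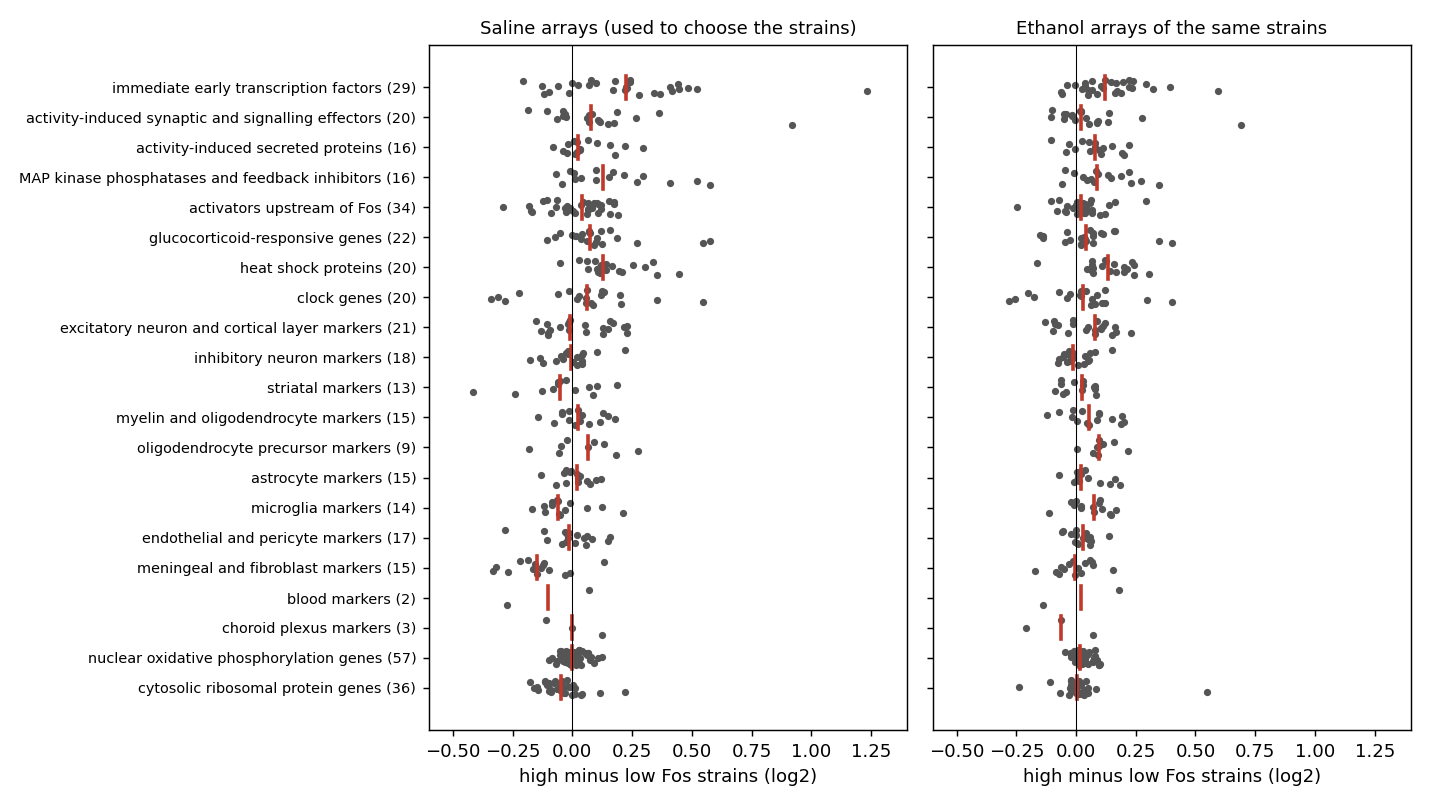
Difference between high and low Fos strains (log2) for each measured member of 21 gene lists, on the saline arrays (left) and the ethanol arrays (right), with the number of genes in parentheses and a red bar at each list's median. Immediate early transcription factors have medians of 0.22 and 0.12 and heat shock proteins of 0.13 and 0.14, while the meningeal markers are at -0.15 on the saline and near 0 on the ethanol arrays.

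The genes most like Fos over the 27 saline arrays were, by Pearson r, Egr2 (0.928), Nr4a3 (0.878), Tiparp (0.875), Nr4a1 (0.820), Dnajb1 (0.796), Dusp1 (0.779), Arc (0.778) and Ppig (0.774). The 8th, Ppig, is a peptidyl-prolyl isomerase associated with splicing and differed by 0.16, with 8 of 9 high arrays above every low one. These values share arrays and scaling with Fos and carry no test.

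The 12 genes ranked highest by moderated t among those at least 0.2 higher were Egr2, Dusp6, Hspa5, Prdm10, Ier5, Dusp1, Per2, Nr4a1 and 4 others. The others were Sbk1, a protein kinase (0.42), Ppp2r1b, a scaffold subunit of protein phosphatase 2A (0.42), the noncoding RNA Dlx6os1 (0.30) and Rab8b, a GTPase of vesicle traffic (0.25). The 12 ranked at the other end were lower by less, from -0.37 to -0.21. Ring1, a Polycomb ubiquitin ligase, was at 6.91, 7.51 and 7.70 in the high and 7.56, 7.85 and 7.89 in the low strains. Gstm2, a glutathione transferase, differed by -0.28, the protease gene Capn1 by -0.25, the kinase gene Jak3 by -0.23 and the DNA glycosylase gene Neil1 by -0.23. In each of the 12 the groups overlapped, and 0 of them belonged to an activity list.

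The ethanol arrays of the same strains held other animals that the ranking had not used, and tests were made there. They share genotype with the saline arrays, so a fixed strain difference in any gene would appear on both. The sign of the high minus low difference was the same on saline and ethanol arrays for 68.2% of all genes. Fos on the ethanol arrays was 8.93 ± 0.44 in the high strains, from 8.26 through a median of 8.77 to 9.48, and 8.61 ± 0.36 in the low strains, from 7.98 through 8.58 to 9.03 (SD, n = 9 each). The groups overlapped: 7 of 9 high arrays were above the low median and 4 above every low array. The difference was 0.32 (95% interval -0.08 to 0.73), and a two-sided exact permutation test over 48620 splits gave p = 0.109. The strains' Fos order was thus not shown to recur in other animals by this contrast.

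The value moved with single strains and with group size. Without BXD22, whose ethanol array had the lowest Fos of the high group, the difference was 0.41 (exact permutation p = 0.0424), and between the top 6 and bottom 6 strains it was 0.56 (exact permutation p = 0.0390). Over all 27 strains saline and ethanol Fos had a Pearson r of 0.459 (permutation p = 0.0165) and a Spearman rho of 0.336 (permutation p = 0.0860). Adjusted over these 2 coefficients the p values were 0.0330 and 0.0860. The relation rested on few strains: without BXD01 and BXD18, the farthest from the median, r was 0.349 (permutation p = 0.0868) and rho 0.218 (permutation p = 0.294). Leaving out BXD01 alone gave r = 0.343 (permutation p = 0.0859) and BXD19 alone r = 0.388 (permutation p = 0.0507).

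Between the ethanol arrays of the high and low strains, 0 of 13196 genes passed a Benjamini-Hochberg adjusted p of 0.05 in limma, in either direction, and the smallest adjusted p was 0.286. At an unadjusted p below 0.05 there were 1272 genes, 650 higher (4.93%) and 622 lower (4.71%) in the high strains. The gene with the smallest p was Ier5, at 9.59, 9.80 and 10.18 in the high and 9.30, 9.40 and 9.72 in the low strains. Its difference was 0.39 (SE 0.07, limma adjusted p = 0.286), close to 0.41 on the saline arrays, and 1 low array reached into the high group's range. With the middle strains in the fit as a further group, Ier5 was the 1 gene to pass (limma adjusted p = 0.0342). The next 4 by p were Osgep, a subunit of the complex that modifies transfer RNA, at 0.24, Neurod6, a transcription factor of cortical excitatory neurons, at 0.23, the protease gene Capn7 at 0.19 and Fgd4, an activator of the GTPase Cdc42, at 0.21.

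No activity gene passed on these arrays, and the differences of those named on the saline arrays ranged widely. Arc was at 8.79, 9.61 and 10.39 in the high and 8.17, 8.74 and 9.67 in the low strains, a difference of 0.69 (SE 0.23, limma adjusted p = 0.39). Egr2 was at 5.37, 6.55 and 6.99 against 4.70, 5.89 and 6.33, a difference of 0.59 (SE 0.23, limma adjusted p = 0.456). The differences of Dusp1 (0.35), Nr4a1 (0.32), Dusp6 (0.27), Junb (0.19), Egr1 (0.17) and Fosb (0.05), and of the clock gene Per2 (0.40), were all smaller than on the saline arrays. Those of Bdnf (0.20) and Trib1 (0.28) were not smaller than their saline differences of 0.18 and 0.27. Most of these genes were named for large saline differences. The Fos difference between the groups was itself 1.17 on the saline and 0.32 on the ethanol arrays. Npas4 differed by 0.02 (SE 0.14, limma adjusted p = 0.968), from 7.14 to 8.00 in the high and 6.87 to 8.00 in the low strains, and its sign turned when any of 5 strains was left out. Of the 81 activity genes measured, 60 (74.1%) were higher in the high strains on the saline arrays, beside 48.8% of all genes, and 62 (76.5%) on the ethanol arrays, beside 54.6%. The upstream activators had the same share on the ethanol arrays, 26 of 34 (76.5%). The sign was the same after saline and ethanol for 59 of the 81 (72.8%), near the 68.2% of all genes. All 12 genes named as highest on the saline arrays were also higher on the ethanol arrays, 11 of them with an unadjusted p below 0.05, and 10 of the 12 lowest were lower there, 2 with an unadjusted p below 0.05. Those counts come from genes picked at the ends of the saline ranking.

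**Figure D3:**
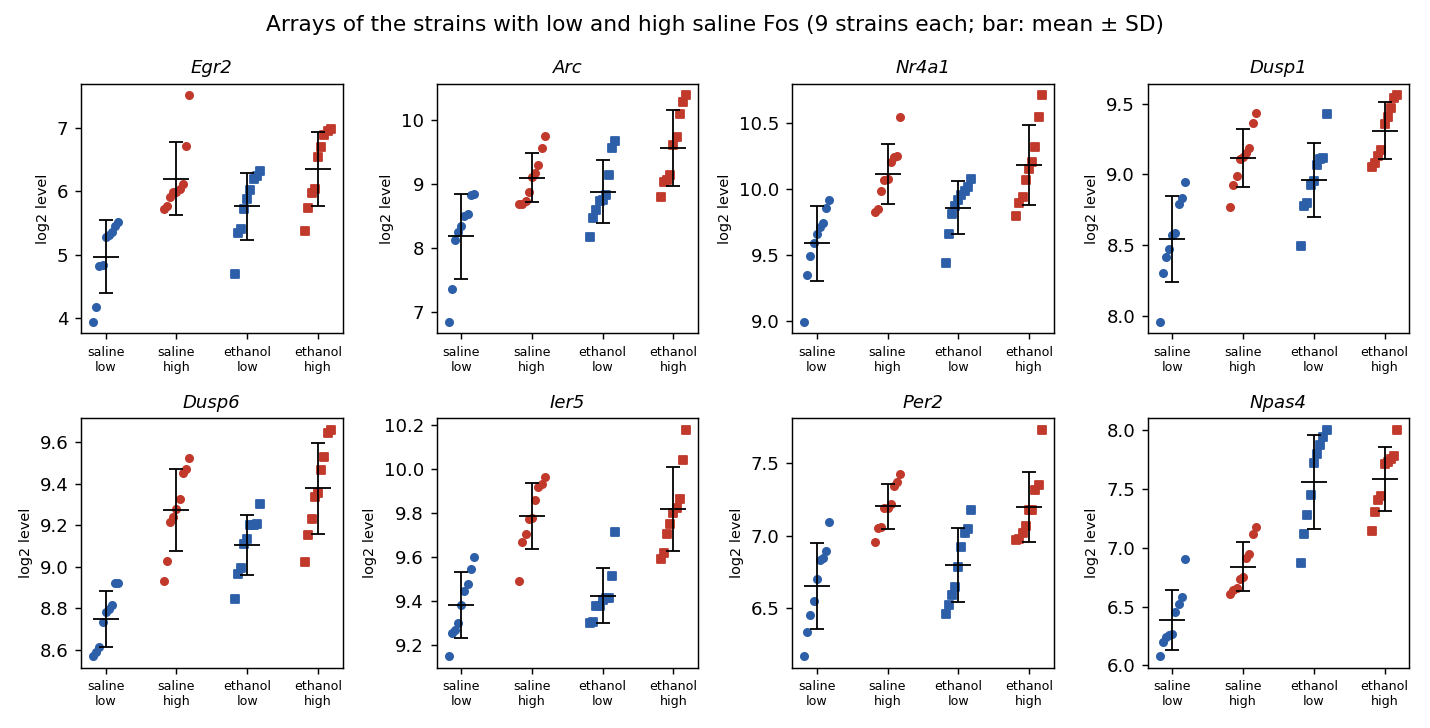
Level (log2) of 8 genes on each saline array (circles) and ethanol array (squares) of the low (blue) and high (red) Fos strains, with the mean and SD of each group of 9. Egr2 and Dusp6 do not overlap on the saline arrays, Ier5 differs by 0.41 and 0.39 after saline and ethanol, and Npas4 differs by 0.45 after saline and 0.02 after ethanol.

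The count of genes that passed differed between group definitions. Between the top 13 and bottom 13 strains, with BXD31 left out, 200 genes passed (1.52%), 125 higher (0.947%) and 75 lower (0.568%), with a smallest limma adjusted p of 0.0302, and 2 of the 81 activity genes were among them. Saline Fos as a continuous covariate over the 27 ethanol arrays gave 0 genes, as did the top 6 against the bottom 6.

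A second test asked which genes vary with Fos on the ethanol arrays themselves, where the saline ranking plays no part. Each gene was regressed on the Fos level of the same array over the 27 ethanol BXD arrays, so the slope is the log2 change per unit of log2 Fos. In limma 36 of 13195 genes passed the adjusted threshold, 31 with a positive (0.235%) and 5 with a negative slope (0.0379%). At an unadjusted p below 0.05 there were 681 positive (5.16%) and 405 negative (3.07%).

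Of the 81 activity genes, 16 (19.8%) had a positive slope past the threshold and 0 a negative one. They were 10 of 29 transcription factors, 2 of 20 effectors, 1 of 16 secreted proteins and 3 of 16 feedback inhibitors. The steepest were Arc at 1.27 (SE 0.14, limma adjusted p = 1.89e-06) and Egr2 at 1.17 (SE 0.10, limma adjusted p = 7.41e-09), where 1 would be a change as large as that of Fos. Next by t came Nr4a1 at 0.54 (SE 0.07, limma adjusted p = 1.47e-05) and Egr1 at 0.56 (SE 0.07, limma adjusted p = 3.17e-05). Junb had a slope of 0.61, Npas4 of 0.61, Dusp4 of 0.58, Klf10 of 0.48 and Dusp1 of 0.44, with limma adjusted p values from 0.000272 to 0.00313. The neurotrophin Bdnf had a slope of 0.41 (SE 0.08, limma adjusted p = 0.0155) and Dusp6 one of 0.44 (SE 0.09, limma adjusted p = 0.0191). Nr4a3, Nfil3, Crem, Csrnp1 and Trib1 completed the 16. Npas4 thus followed Fos over all ethanol BXD arrays. On the ethanol arrays of the high and low strains alone its slope did not pass (limma adjusted p = 0.187). Between those strains Npas4 differed by 0.45 after saline and by 0.02 after ethanol. Fos itself differed between them by 0.32 after ethanol (exact permutation p = 0.109).

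Outside the activity lists, the 15 further positive genes included Trib2, a pseudokinase, at 0.43 (SE 0.07, limma adjusted p = 0.00318), Gpr17, a receptor of oligodendrocyte precursors, at 0.32, the cochaperone gene Dnajb5 at 0.33, the clock repressor gene Bhlhe40 at 0.32 and Cbln4, a synaptic organiser, at 0.57. Of the 31 positive genes, 30 had also been higher in the high strains on the saline arrays, 23 by at least 0.2, and 31 were higher on the ethanol arrays of those strains. Of all genes, 48.8% were higher on the saline arrays, 3.53% by at least 0.2, and 54.6% were higher on the ethanol arrays. Of the counts for the 31 genes, the first 2 use saline arrays that the slope did not use. Fos on those saline arrays chose the groups, so these 2 counts are descriptions and no test either. The last count uses ethanol arrays of the slope fit, on which Fos was 0.32 higher in the high strains, so it is no separate test. The 5 negative genes were Hps1, a subunit of a complex in the making of lysosome-related organelles, at -0.44, Lrrcc1, a centrosomal protein, at -0.25, the transfer RNA processing enzyme gene Elac1 at -0.22, Kctd2 at -0.21 and the carnitine transporter gene Slc22a5 at -0.18. On the saline arrays their differences lay between -0.09 and 0.02.

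Some genes that differed between the strain groups on the saline arrays had positive slopes on Fos over the ethanol arrays that did not pass. Over the 27 saline arrays r with Fos was 0.748 for Ier5, 0.725 for Per2, 0.589 for Hspa5, 0.603 for Prdm10 and 0.602 for Rap1b. These genes were picked by their difference between groups that Fos on the saline arrays chose. Their r there follows from that choice and is no separate result. Ier5 had a slope of 0.22 (SE 0.08, limma adjusted p = 0.39) and Per2 of 0.31 (SE 0.11, limma adjusted p = 0.398). Hspa5, Prdm10 and Rap1b, without overlap on the saline arrays, had slopes of 0.23, 0.12 and 0.12 and did not pass (limma adjusted p = 0.312, 0.604 and 0.349). Of heat shock proteins 1 of 20 passed, and of the upstream activators 0 of 34, beside 0.235% of all genes with a positive slope. At an unadjusted limma p below 0.05, 8 of 20 and 2 of 34 had a positive slope, beside 5.16% of all genes. A negative one was found in 0 of 20 and 2 of 34, beside 3.07%. Whether a gene's slope and its strain difference differ from each other was not tested.

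Of the 31 positive genes, 21 had a promoter window in the RefSeq table, and 15 of these (71.4%) held the TGACG half-site in at least 1 window, against 3610 of 10602 tested genes (34.1%). A CArG box stood in 1 of 21 (4.76%), that of Egr2 shown above, against 1.58%. These shares are descriptions of genes chosen by their slope.

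**Figure D4:**
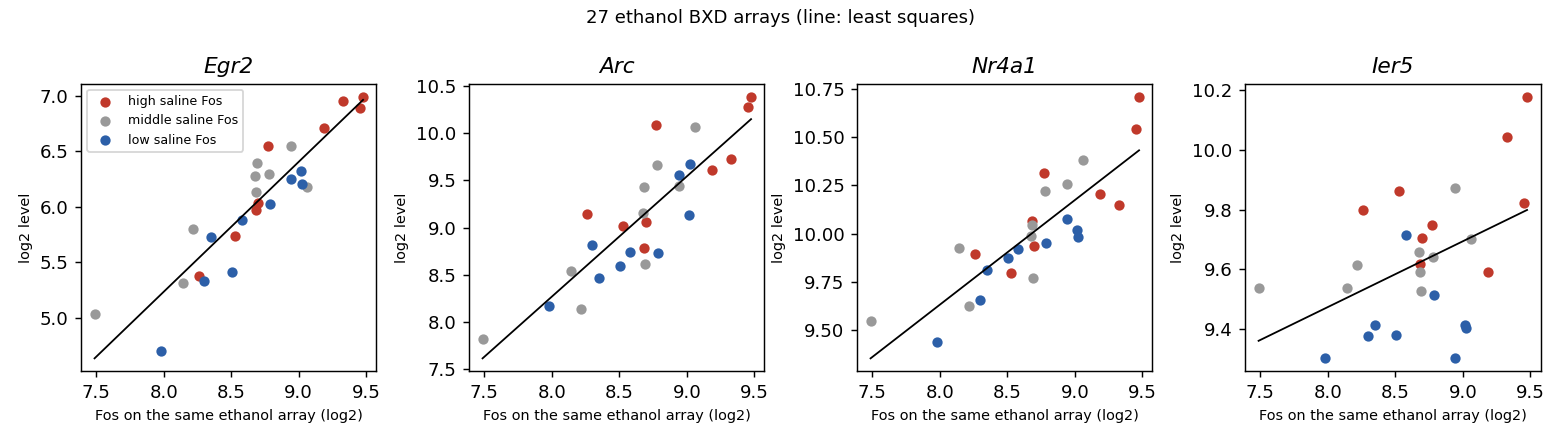
Level (log2) of Egr2, Arc, Nr4a1 and Ier5 against Fos on the same array, for 27 ethanol BXD arrays coloured by the strain's saline Fos group, with a least squares line. Egr2, Arc and Nr4a1 lie near their lines, with slopes of 1.17, 1.27 and 0.54, while most low strains of Ier5 lie below the line and most high strains above it.

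The count of genes with a significant slope depended on a few arrays. It was 16 without BXD01, 17 without BXD27, whose ethanol array had the lowest Fos of the panel at 7.49, 20 without BXD23 and 23 without BXD11. On the 18 ethanol arrays of the high and low strains alone it was 5, all positive, and these were Egr2, Arc, Nr4a1, Egr1 and Dusp1, so the other slopes named here did not pass on those arrays. The same 5 passed under each alternative tried, with each strain left out in turn included. The slope of Bdnf did not pass without BXD01 (limma adjusted p = 0.0771), without BXD27 (limma adjusted p = 0.232) or on the 18 arrays (limma adjusted p = 0.340). Without BXD27 0 negative slopes passed, and the 5 negative genes named above had limma adjusted p values from 0.0957 to 0.283. Junb, Npas4, Dusp4, Klf10 and Trib2 passed with each strain left out but not on the 18 arrays alone, where their limma adjusted p ran from 0.0681 to 0.187.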

How the data were processed

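Medial prefrontal cortex RNA was measured on 66 Affymetrix mouse arrays. The deposited files hold log2 values for which the submitters' processing notes name affy and RMA, without versions. RMA scales arrays to one another, so values are relative, but the distributions of the deposited values were not identical. The number of arrays limits the precision. Array medians were 5.67 to 5.77 and SDs 2.06 to 2.17, and 2 arrays correlated at most at 0.997, so none was treated as a copy. The p-values measure the spread between strains and pools together. Batches of arrays were not used here, and neither were sequence differences between strains under the probes.

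Of 45037 probe sets, 34945 had 1 gene symbol, 932 several and 9160 none; 34741 symbols were updated through a RefSeq table of GRCm38.p6. Probe sets with a mean below the 40th percentile (log2 5.10, 18015 in all) were removed, and the brightest per gene gave 13196 genes. Tests used limma 3.58.1 in R 4.3.3 (lmFit, eBayes, two-sided, adjusted p below 0.05) with the data.table package of version 1.17.8, on 18 ethanol arrays (16 residual degrees of freedom) for the difference and 27 (25 residual degrees of freedom) for the slope, and permutation tests (100000 resamples for correlations). Scripts were tested on simulated data. Figures used matplotlib 3.10.9.

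The members, the gene lists and the tests were chosen with earlier results of these data known. Genes were named by rule: on saline arrays the 12 largest moderated t in each direction among differences of at least 0.2, the members of each list without overlap or with the largest differences (4 in activity lists, 2 in others), and the 8 highest r with Fos; on ethanol arrays the 5 smallest p and the 10 largest slope t in each direction, plus Npas4, Arc, Egr1, Egr2, Fosb, Junb, Nr4a1, Dusp1 and Bdnf. Other list members are named beside them as examples, after their values were seen. Alternatives were other filters, probe set choices, scalings, covariates, group sizes and each strain left out.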

Additional observations from a re-analysis of the deposited data

Results flagged for a closer look

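In each group of 9 arrays, the gap between the most extreme array and its neighbour was set against the whole range of the group, and a share above Dixon's 95% critical value of 0.493 marked a strain as standing apart. This was done for 82 genes in 4 groups each, 328 groups in all, of which 22 were marked. Chance marks about 1 in 20 groups. Each value below is the level (log2) of the array that stood apart against that of its nearest neighbour, with the gap as a share of the range.

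Activity genes were marked in these groups. Among the high strains on saline arrays BXD01 stood above the others in Fosb and Bdnf: for Fosb BXD01 at 7.38 against 6.24 (gap 0.720) and for Bdnf BXD01 at 10.09 against 9.50 (gap 0.532). For Pcsk1 the high saline array apart was BXD11 at 8.07 against 7.61 (gap 0.544). Among the low strains on saline arrays BXD19, which also had the second lowest Fos, stood below the others in Junb, BXD19 at 6.19 against 6.89 (gap 0.734), and in Dusp4, BXD19 at 5.32 against 5.72 (gap 0.501). For Fosb the low saline array apart was the highest, BXD32 at 7.04 against 6.07 (gap 0.589). For Per2 it was the highest of the high strains on ethanol arrays, BXD15 at 7.73 against 7.35 (gap 0.496).

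Col1a2, a collagen gene of the meninges, was the 1 gene marked for the same strain after both treatments: after saline BXD22 at 6.46 against 7.76 (gap 0.742) and after ethanol BXD22 at 6.26 against 7.90 (gap 0.815), the lowest of the high strains in both. Without BXD22 the difference between high and low strains was -0.16 after saline, in place of -0.33, and 0.03 after ethanol, in place of -0.17. Other markers of non-neuronal or blood cells were marked once or on different strains. In Alas2, of erythroid cells, the high saline array apart was BXD05 at 7.14 against 6.45 (gap 0.651), and in the globin gene Hbb-b2 the high ethanol array was BXD05 at 6.23 against 5.76 (gap 0.499), the same strain. The choroid plexus gene Ttr had BXD06 at 6.98 against 6.48 (gap 0.557) among high and BXD36 at 6.54 against 6.31 (gap 0.544) among low ethanol arrays. Igf2 had BXD18 at 8.80 against 9.13 (gap 0.495) among low ethanol arrays, and the myelin gene Ugt8a had BXD36 at 8.21 against 7.64 (gap 0.570) among low saline arrays.

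The remaining marked values were spread over genes and strains. On saline arrays of the high strains they were for Capn7 BXD06 at 7.90 against 8.19 (gap 0.627) and for Neil1 BXD21 at 6.58 against 6.41 (gap 0.498). On ethanol arrays of the high strains they were for Jak3 BXD01 at 6.75 against 6.47 (gap 0.629), for the neuropeptide gene Npy BXD01 at 11.52 against 11.03 (gap 0.534) and for Ppig BXD22 at 8.42 against 8.26 (gap 0.664). On ethanol arrays of the low strains they were for Chpf2 BXD20 at 6.99 against 7.28 (gap 0.561) and for the respiratory chain gene Sdha BXD36 at 11.32 against 11.23 (gap 0.495).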

How the results depend on the processing

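No paired analysis was possible because the high and low groups hold different strains and share no replicate numbers, and a ranking by another Fos probe set could not be run because 1 probe set carries that symbol. The saline count of genes without overlap (5) was 3 with a 60th percentile filter, 2 after repeated quantile normalization, 47 for the top 6 against the bottom 6 strains, 0 for the top 13 against 13, 1 with the meningeal marker level and 0 with the first principal component as a covariate, and 5 to 19 with 1 strain left out (19 without BXD06, 9 without BXD39, 8 without BXD36). The last 2 covariates were chosen after seeing the data. The count of genes at least 0.2 higher (466) was 1253 with all probe sets, 276 after quantile normalization, 817 for the top 6, 259 with the principal component and 355 to 721 with 1 strain left out (721 without BXD06). The count of genes at least 0.2 lower (278) was 422 with all probe sets, 106 for the top 13 and 223 to 416 with 1 strain left out.

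On ethanol arrays 0 genes passed except with the middle strains in the fit (1 gene) and for the top 13 against 13 (200), and 0 passed with any 1 strain left out. The Fos difference (0.32) was 0.557 for the top 6 and 0.243 to 0.406 with 1 strain left out, and the correlation of saline and ethanol Fos (0.459) was 0.343 to 0.512. The count of slopes (36, of which 31 positive and 5 negative) was 70 after adding the first component of the residuals (55 and 15), 70 after adding that of all arrays (50 and 20) and 5 on the 18 arrays (5 and 0). Negative slopes numbered 15 with the array SD as covariate and 8 after quantile normalization. With 1 strain left out the count was 16 to 46, positive 15 to 40 and negative 0 to 7. The ethanol difference of Fosb was -0.108 for the top 13, and that of Npas4 ran from -0.0625 to 0.0797 with 1 strain left out. The cause was not tested for any of these. The other results that were recomputed kept their direction. Of the slopes recomputed, Elac1 and Lrrcc1 lost their threshold in 11 settings each, Slc22a5 in 7, Hps1 and Kctd2 in 5 each and Bdnf in 3. Other list members and slopes in the text were not recomputed one by one, apart from Col1a2 without BXD22, chosen after seeing the data. Signal near the dim filter limits the size for Egr2.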
